A study of Mus musculus with 18 samples.

Results

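Semaphorins, plexins and neuropilins are a family of guidance ligands and their receptors. They were followed here through 3 cell fractions of the embryonic mouse cortex. Every protein-coding gene with the symbol of a class 3 to 7 semaphorin, of a plexin A to D or of a neuropilin was taken, which gave 31 of the 38250 genes and transcripts counted, 20 semaphorins (the ligands), 9 plexins and 2 neuropilins (the receptors). The fractions came from the lateral cortex of C57BL/6 embryos at embryonic day 14.5 that carried reporters at Btg2, which brakes the cell cycle and is turned on where a progenitor is committed to making neurons, and at Tubb3, a neuronal tubulin. All 3 fractions share this genotype, strain, age and tissue, and no other treatment is named. Cells without the Btg2 reporter were labelled proliferating progenitors (PP), Btg2 reporter-positive cells differentiating progenitors (DP), and Tubb3 reporter-positive cells neurons (Neuron). The genotype label writes GFP for both reporters and the titles give RFP as the Btg2 colour, and the titles were followed. Meninges and ganglionic eminences were removed before sorting, and each library pooled more than 3 embryos of different litters, so the spread between libraries is one between pools. A fraction is defined by its reporter signal alone, and a reporter protein can outlast the transcript it reports.

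Semaphorins act on cells that carry plexins. Class 3 semaphorins are secreted and mostly bind a neuropilin, which holds the ligand while a plexin A passes the signal into the cell. Classes 4, 5 and 6 are transmembrane proteins and class 7 is tethered to the membrane by a lipid anchor, and these bind plexins directly. Activated plexins act on small GTPases and on the cytoskeleton and so steer growth cones and migrating cells. In the developing cortex the family is known for guiding callosal and corticofugal axons, for the radial migration of newborn neurons and for sorting interneurons on their way in.

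The promoters of 4 members are shown because these genes stand for 4 different courses across the fractions, described with their values further on. Nrp2 was higher at each step from PP to Neuron, Plxnd1 was higher in Neuron alone, Sema3g was highest in DP, and Sema5a was lower at each step. The sequences are RefSeq windows on the build GRCm38.p6, from 250 bases before to 50 bases after the annotated start, 5′ to 3′ on the gene's strand. They lie at chr1:62703067-62703366 on the plus strand for Nrp2, chr6:115994956-115995255 on the minus strand for Plxnd1, chr14:31217623-31217922 on the plus strand for Sema3g and chr15:32244563-32244862 on the plus strand for Sema5a. Capitals mark CANNTG, the E-box that basic helix-loop-helix factors such as the neurogenins can bind.
Nrp2: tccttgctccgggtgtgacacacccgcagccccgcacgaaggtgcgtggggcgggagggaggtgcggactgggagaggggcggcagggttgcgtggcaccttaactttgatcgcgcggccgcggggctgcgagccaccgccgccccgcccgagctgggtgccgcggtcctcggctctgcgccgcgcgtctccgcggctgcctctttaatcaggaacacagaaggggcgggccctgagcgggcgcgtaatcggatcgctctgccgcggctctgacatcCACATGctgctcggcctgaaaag
Plxnd1: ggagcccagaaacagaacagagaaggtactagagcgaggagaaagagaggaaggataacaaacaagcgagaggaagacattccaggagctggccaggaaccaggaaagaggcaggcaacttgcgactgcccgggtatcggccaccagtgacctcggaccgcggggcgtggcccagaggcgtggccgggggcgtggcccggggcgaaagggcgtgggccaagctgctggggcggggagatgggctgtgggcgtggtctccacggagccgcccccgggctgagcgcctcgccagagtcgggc
Sema3g: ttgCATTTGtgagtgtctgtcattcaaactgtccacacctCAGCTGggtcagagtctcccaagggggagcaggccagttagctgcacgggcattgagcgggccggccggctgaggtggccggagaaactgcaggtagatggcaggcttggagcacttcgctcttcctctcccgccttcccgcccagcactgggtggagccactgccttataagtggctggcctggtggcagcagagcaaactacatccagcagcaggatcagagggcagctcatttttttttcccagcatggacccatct
Sema5a: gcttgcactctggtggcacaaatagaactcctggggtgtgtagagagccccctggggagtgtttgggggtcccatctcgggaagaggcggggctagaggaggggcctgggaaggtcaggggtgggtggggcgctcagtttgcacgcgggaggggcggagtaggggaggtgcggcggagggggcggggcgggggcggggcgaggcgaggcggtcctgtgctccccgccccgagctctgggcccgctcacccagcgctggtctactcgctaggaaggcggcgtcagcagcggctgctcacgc
The Nrp2 window held 1 CANNTG and the Sema3g window 2, while the Plxnd1 and Sema5a windows held 0. The letters TGGGAA, read on both strands as the core that the Notch effector Rbpj can bind, occurred once each in the Sema3g and Sema5a windows and overlapped no CANNTG there. CANNTG, which reads as the same pattern on both strands, was present in 21 of the 37 RefSeq windows of 26 members (56.8%) and in 72.3% of all 32851 mouse windows of this length. TGGGAA was present in 8 of the 37 (21.6%) and in 25.6% of all. The windows of the members had a median of 15 CG pairs, and all windows a median of 7. A match describes letters and says nothing of binding. Plxna1, Plxna4, Sema3b, Sema3f and Sema6a had no entry in the promoter table. The counts use the build mm9, so these coordinates were not set against those of the count tables.

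Levels are given as CPM, a gene's counts relative to the library's TMM-scaled total, on the usual per-million scale, always in the order of libraries L222, L355 and L393 for PP, L223, L356 and L394 for DP, and L224, L357 and L395 for Neuron. Totals ranged from 34337209 to 55935128 counts per library. Radial glia markers summed to 3773 to 4452 CPM in PP, 1729 to 2333 in DP and 244.5 to 317.1 in Neuron. Intermediate progenitor markers summed to 1166 to 1195 CPM in PP, 2489 to 3548 in DP and 468 to 522 in Neuron. Cortical neuron markers summed to 113 to 274 CPM in PP, 1643 to 2321 in DP and 6884 to 7411 in Neuron. Among the PP libraries L222 held the most neuronal transcript: Dcx, a microtubule protein of young neurons, was at 88.4 CPM there against 42.6 and 28.3 in the others. In a bulk sample, fewer cells of a type and less RNA per cell cannot be told apart.

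The family changed in composition from fraction to fraction. Both neuropilins and all 4 plexin A genes rose at each step, Plxna1 by little at the first. Plxnd1 rose in Neuron alone, and Plxnb1 and Plxnb2 fell in Neuron. Of the ligands, the class 5 semaphorins fell at each step, while most class 4, 6 and 7 semaphorins rose, and the secreted class 3 members went different ways. Each adjusted p below comes from 1 fit with the quasi-likelihood test of edgeR, adjusted by the Benjamini-Hochberg method over all 18627 features tested. In DP against PP, 16 of the 30 members tested were higher and 8 lower, where 41.4% of all features were called, 21.3% as higher and 20.2% as lower. In Neuron against DP, 20 members were higher and 8 lower, where 67.3% of all features were called, 33.1% as higher and 34.2% as lower. In Neuron against PP, 19 were higher and 10 lower, where 75.3% of all features were called, 36.7% as higher and 38.6% as lower. These comparisons share libraries: each fraction enters 2 of them. The filter on low counts removed Plxnb3, which had 1 to 6 reads in each library, so that 30 of the 31 members were tested. CPM of the compared fractions did not overlap for 25 of the 30 members in DP against PP, 27 in Neuron against DP and 30 in Neuron against PP, against 49.7%, 72.4% and 78.6% of all features tested.

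Counted over both steps, 13 members were higher in DP than in PP and higher again in Neuron, a course that 12.4% of all features tested showed. They were Nrp1, Nrp2, Plxna1, Plxna2, Plxna3, Plxna4, Sema3c, Sema4c, Sema4g, Sema6b, Sema6c, Sema6d and Sema7a. Sema3a, Sema5a and Sema5b, 3 members, were lower at each step, against 10.9% of all features. Sema3e and Sema3g, 2 members, were higher in DP than in both other fractions, against 4.37% of all. Plxnc1, Sema3f, Sema4d and Sema6a, 4 members, were lower in DP than in both, against 4.49% of all. Over these 2 steps, Plxnd1, Sema4a and Sema4f passed the test only as higher in Neuron than in DP, Plxnb1, Plxnb2 and Sema3d only as lower there, Sema4b only as higher in DP than in PP, and Sema3b only as lower there.

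**Figure D1:**
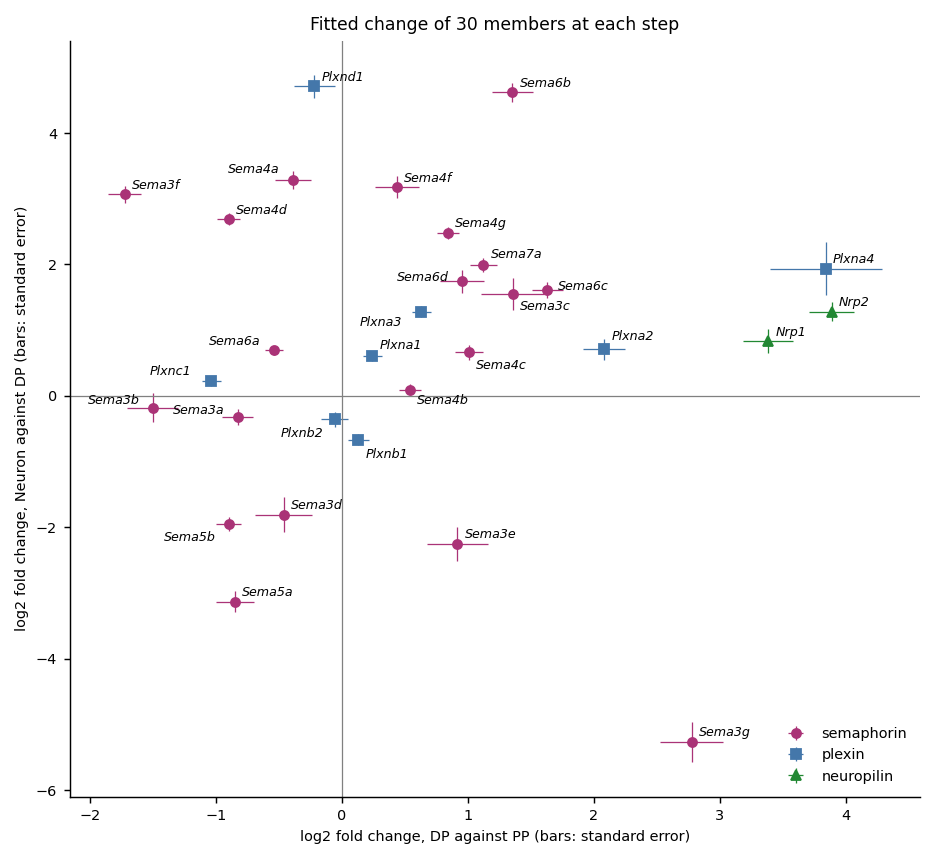
Fitted log2 fold change of each of the 30 members tested, DP against PP on the horizontal axis and Neuron against DP on the vertical axis, with bars of 1 standard error; circles are semaphorins, squares plexins and triangles neuropilins. Both axes share the DP libraries. The neuropilins and Plxna4 lie far to the right, Plxnd1 and Sema6b at the top, and Sema3g alone at the lower right with 2.78 and -5.27.

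The neuropilins were low in proliferating progenitors and, with Plxna4, rose the most of the 30 members tested at the first step. Nrp1, a receptor for Sema3a and for vascular endothelial growth factor, was at 23.4, 13.2 and 13.4 CPM in the PP libraries, 151, 184 and 183 in those of DP and 327, 311 and 286 in those of Neuron. No library of one fraction reached into the range of another. The fitted rise was 10.4-fold from PP to DP (log2 3.38 ± 0.20 SE, edgeR adjusted p = 3.80e-07) and 1.78-fold from DP to Neuron (adjusted p = 0.00124). Nrp2 (ENSMUSG00000025969, chr1:62749859-62865269, plus strand, mm9), the receptor for Sema3f, was at 6.31, 4.23 and 4.56 CPM in the PP libraries, 59.1, 88.5 and 74.0 in those of DP and 169.5, 199.9 and 170.2 in those of Neuron. It too separated all 3 fractions. Nrp2 rose 14.8-fold (log2 3.89 ± 0.18 SE, edgeR adjusted p = 1.50e-07) and then 2.43-fold (adjusted p = 1.24e-05), and stood 36.0-fold higher in Neuron than in PP. L222, the PP library with the most Dcx, was the highest PP library for 16 of the 31 members, L393 for 10 and L355 for 5. The same count over all features was not made. Highest in L222 were both neuropilins, Plxna2, Plxna4 and Sema3c, but also Sema3e, Sema3g and Sema5a, which were lower in Neuron than in DP. Plxna3, Plxnd1, Sema4f and Sema4g, all higher in Neuron than in DP, were highest in L393, and Sema3f in L355. The part of neuronal transcript in the PP level of these members was not tested.

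The plexin A genes, the signalling partners of the neuropilins and direct receptors of class 6 semaphorins, rose at both steps, all 4 of them. Plxna4 was at 39.5, 15.1 and 8.59 CPM in the PP libraries, 261, 358 and 277 in those of DP and 1434, 1014 and 976 in those of Neuron. Its PP libraries spread widely, L222 lying above the others, yet the fractions did not overlap. The fitted rise was 14.3-fold from PP to DP (log2 3.84 ± 0.44 SE, edgeR adjusted p = 4.00e-05) and 3.82-fold from DP to Neuron (adjusted p = 0.00117). Without L222 the first rise was 25.3-fold and the change from PP to Neuron 96.2-fold, against 54.6-fold with it. Without L222, L223 and L224 together these were 27.1-fold and 85.3-fold. Plxna2, a receptor of Sema6a, was at 346, 274 and 206 CPM in the PP libraries, 1035, 1286 and 1173 in those of DP and 2133, 1786 and 1801 in those of Neuron. No fractions overlapped, and most of the rise lay in the first step, 4.23-fold (edgeR adjusted p = 2.41e-06), before 1.64-fold (adjusted p = 0.00194). Plxna3, which with Nrp2 receives Sema3f, was at 189, 213 and 214 CPM in the PP libraries, 289, 338 and 327 in those of DP and 783, 787 and 752 in those of Neuron. Again no fractions overlapped, and the larger rise came second, with 1.55-fold first (edgeR adjusted p = 6.38e-05) and 2.43-fold second (adjusted p = 3.80e-08). Plxna1 was already at 237 to 257 CPM in PP and reached 412 to 475 in Neuron. Its rise from PP to DP, 1.18-fold (edgeR adjusted p = 0.0244), was no longer called under 6 of the 18 other settings tried. Exons of Gm16896 on the opposite strand cover 970 bases of those of Plxna1 (10.7%), and reads of the pair cannot be told apart if counting ignored the strand.

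Plxnb1 and Plxnb2, plexin B genes and receptors of class 4 semaphorins, were high in progenitors and lower in neurons. Plxnb1, the receptor of Sema4d, was at 574, 597 and 662 CPM in the PP libraries, 656, 626 and 726 in those of DP and 445, 393.7 and 426 in those of Neuron. PP and DP overlapped (edgeR adjusted p = 0.235), and every Neuron library lay below them, with a 1.59-fold fall from DP to Neuron (adjusted p = 2.14e-05). Plxnb2 was at 573 to 585 CPM in PP, 510.0 to 628 in DP and 378 to 504 in Neuron. It did not pass the test in DP against PP (log2 -0.06 ± 0.11 SE, edgeR adjusted p = 0.706), and its 1.28-fold fall to Neuron (adjusted p = 0.0117) was lost on leaving out L223 or L395. Plxnb3 gave too few reads to be tested.

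Plxnc1 and Plxnd1 each took a course of their own. Plxnc1, the receptor of Sema7a, was at 70.8, 73.6 and 61.3 CPM in the PP libraries, 34.1, 33.0 and 33.2 in those of DP and 40.3, 38.9 and 38.8 in those of Neuron. PP stood above both other fractions, and the fall to DP was 2.05-fold (log2 -1.03 ± 0.08 SE, edgeR adjusted p = 1.54e-06). The later 1.18-fold rise (edgeR adjusted p = 0.0183) was lost under 5 of the 18 other settings. Plxnd1 (ENSMUSG00000030123, chr6:115904829-115945023, minus strand, mm9), known as the receptor of Sema3e and also from blood vessels, was at 9.56, 9.95 and 14.0 CPM in the PP libraries, 9.91, 8.52 and 10.5 in those of DP and 295, 210.4 and 250.04 in those of Neuron. PP and DP were both low and overlapped (edgeR adjusted p = 0.314), while the lowest Neuron library was above every progenitor library by more than an order of magnitude. The rise from DP to Neuron was 26.1-fold (log2 4.71 ± 0.17 SE, edgeR adjusted p = 7.38e-10). Markers of endothelial cells, 10 genes of which 9 were tested, summed to 10.3 to 32.6 CPM in PP, 10.02 to 12.01 in DP and 3.13 to 6.26 in Neuron. None rose at either step, 7 fell from PP to DP and 3 from DP to Neuron, where 20.2% and 34.2% of all features fell. In the Neuron libraries Cldn5, a tight junction protein of brain vessels, was at 0, 0.102 and 0.232 CPM, and Esam, an adhesion molecule of endothelial cells, at 1.36, 1.18 and 1.49, against 1.29, 1.07 and 1.64 in DP. Their part in the Plxnd1 level was not tested.

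**Figure D2:**
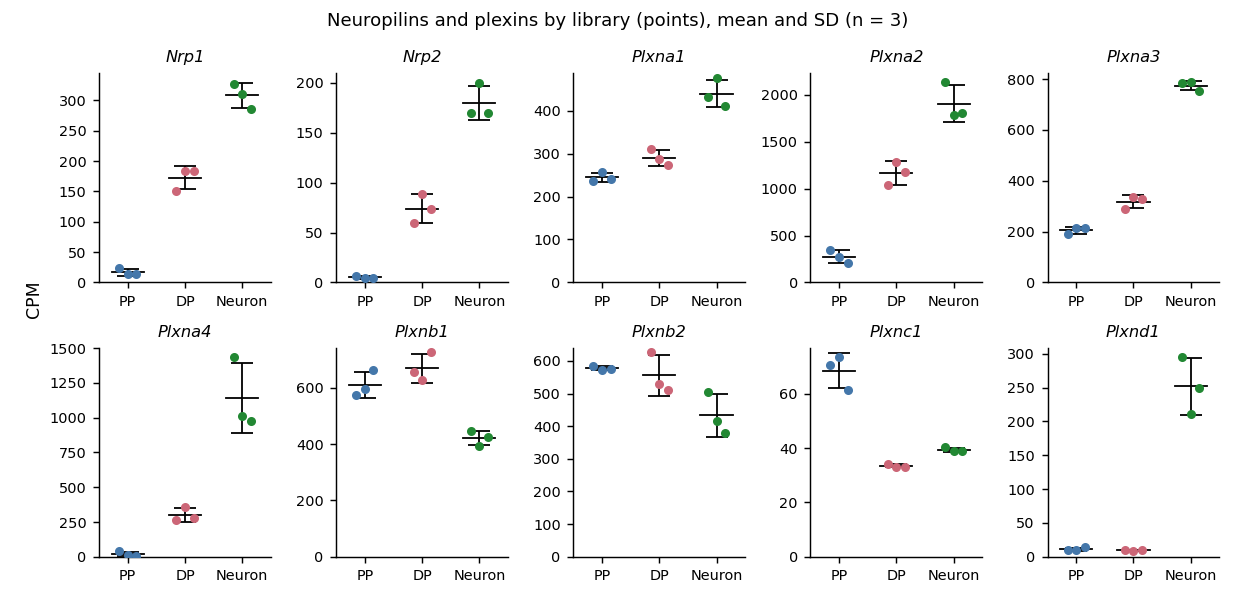
CPM of the 2 neuropilins and 8 plexins in each library (points, 3 per fraction), with the mean and SD as black lines; each panel has its own axis from 0. Neuropilins and plexin A genes climb from PP to Neuron, Plxnd1 stands at 210.4 to 295 CPM in Neuron against at most 14.0 elsewhere, and Plxnb1 is lowest in Neuron.

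The class 3 semaphorins, the secreted ligands, shared no direction. Of the 7, 3 rose and 3 fell from PP to DP, and 2 rose and 4 fell from DP to Neuron, with median log2 changes of -0.46 and -0.33. Of all features tested, 21.3% rose and 20.2% fell from PP to DP, and 33.1% rose and 34.2% fell from DP to Neuron. Sema3g (ENSMUSG00000021904, chr14:32031046-32043536, plus strand, mm9), a ligand of Nrp2, was at 1.72, 1.17 and 1.71 CPM in the PP libraries, 7.98, 10.7 and 12.8 in those of DP and 0.375, 0.142 and 0.309 in those of Neuron. Every DP library stood above every other library, and the Neuron libraries held only 16, 7 and 12 reads. Sema3g rose 6.85-fold from PP to DP (log2 2.78 ± 0.25 SE, edgeR adjusted p = 5.75e-06) and fell 38.5-fold to Neuron (adjusted p = 2.69e-08). Sema3e, the ligand of Plxnd1, was at 4.99, 3.48 and 2.34 CPM in the PP libraries, 6.54, 7.94 and 5.76 in those of DP and 1.62, 1.44 and 1.18 in those of Neuron. It shared the peak in DP at a smaller size, 1.89-fold up (edgeR adjusted p = 0.0101) and 4.76-fold down (adjusted p = 1.09e-05). Markers of choroid plexus and cortical hem also peaked in DP, at 71.9 to 117 CPM against 24.7 to 63.6 in PP and 55.3 to 66.8 in Neuron. Of these 7 markers, 6 were higher in DP than in PP and 6 lower in Neuron than in DP. The shares of all features with these calls were 21.3% and 34.2%. Rspo3, which rose again to Neuron, made up most of the summed Neuron level, at 51.6, 62.3 and 56.0 CPM. Ttr, not called in DP against PP (edgeR adjusted p = 0.551), was at 55.3 CPM in L222 and 52.8 in L223. These libraries had the highest sums of PP and DP. The part of choroid plexus and hem cells in the course of Sema3e and Sema3g was not tested.

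Sema3f, a repellent that acts through Nrp2, was at 27.5, 33.8 and 31.6 CPM in the PP libraries, 11.3, 8.12 and 8.76 in those of DP and 79.7, 84.7 and 71.5 in those of Neuron. DP was the low point, 3.30-fold below PP (log2 -1.72 ± 0.13 SE, edgeR adjusted p = 1.63e-06), from which Neuron rose 8.38-fold (adjusted p = 2.24e-09). Sema3c, an attractant for some cortical axons, was at 16.8, 11.3 and 7.17 CPM in the PP libraries, 25.2, 38.1 and 26.3 in those of DP and 96.6, 82.7 and 83.9 in those of Neuron. The fractions did not overlap, and it rose 2.56-fold (edgeR adjusted p = 0.00114) and 2.94-fold (adjusted p = 1.21e-04). Sema3a, a repellent that acts through Nrp1, was at 62.4 to 75.7 CPM in PP, 33.2 to 44.3 in DP and 27.3 to 34.9 in Neuron. Its fall from PP to DP was 1.77-fold (edgeR adjusted p = 2.52e-04), and the further change to Neuron (log2 -0.33 ± 0.12 SE, adjusted p = 0.0334) rested on overlapping libraries and was lost under 6 of the 18 other settings. Sema3b and Sema3d were scarce. Sema3b was at most 3.60 CPM and highest in PP, and Sema3d at most 2.52 CPM and lowest in Neuron.

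The class 4 semaphorins were ligands that rose in neurons: 5 of 6 were higher in Neuron than in DP and all 6 higher than in PP. Of all features tested, 33.1% and 36.7% were higher in these 2 comparisons. Sema4g, a ligand of Plxnb2, was at 40.03, 39.2 and 42.0 CPM in the PP libraries, 61.8, 78.9 and 76.7 in those of DP and 403, 419.8 and 390.4 in those of Neuron. The Neuron libraries lay far above the rest, 5.58-fold over DP (log2 2.48 ± 0.09 SE, edgeR adjusted p = 7.47e-10) after a 1.79-fold rise from PP to DP (adjusted p = 2.04e-05). Sema4d, the ligand of Plxnb1, was at 34.3, 31.4 and 33.4 CPM in the PP libraries, 20.0, 15.7 and 17.5 in those of DP and 111, 115 and 116 in those of Neuron. No fractions overlapped, as it dipped 1.86-fold in DP (edgeR adjusted p = 1.14e-05) and then rose 6.45-fold (adjusted p = 3.97e-10). Sema4c, another ligand of Plxnb2, was at 86.3, 88.0 and 106 CPM in the PP libraries, 161, 184 and 219 in those of DP and 299.7, 286 and 305 in those of Neuron. Its rise was gradual and without overlap, 2.01-fold and then 1.58-fold (edgeR adjusted p = 2.87e-05 and 2.23e-04).

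Sema4f and Sema4a were near the bottom of the range in progenitors. Sema4f was at 3.54, 4.14 and 5.67 CPM in the PP libraries, 5.20, 5.60 and 7.45 in those of DP and 50.5, 58.6 and 55.6 in those of Neuron, a 9.03-fold rise from DP to Neuron (edgeR adjusted p = 1.25e-08). Sema4a, best known from immune cells and the retina, was at 3.62, 2.90 and 4.09 CPM in the PP libraries, 2.75, 2.36 and 3.04 in those of DP and 26.5, 25.6 and 27.4 in those of Neuron, a 9.76-fold rise (edgeR adjusted p = 1.94e-09). For both, Neuron stood clear of the progenitors, while PP and DP overlapped and did not pass the test (edgeR adjusted p = 0.0664 and 0.0511 in DP against PP), although 5 and 7 of the 18 other settings called them. With the 3 sets of consecutive library numbers (L222 to L224, L355 to L357 and L393 to L395) as a block in the fit, Sema4f was called higher (log2 0.45, edgeR adjusted p = 0.0156) and Sema4a lower (log2 -0.38, edgeR adjusted p = 0.0159) in DP than in PP. Sema4b stayed between 50.1 and 91.8 CPM in all libraries and rose only from PP to DP, 1.46-fold (edgeR adjusted p = 3.71e-04).

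The class 5 semaphorins, transmembrane ligands with thrombospondin repeats, were highest in proliferating progenitors and lowest in neurons. Sema5a (ENSMUSG00000022231, chr15:32174568-32626096, plus strand, mm9) was at 838, 752 and 661 CPM in the PP libraries, 426, 445 and 381 in those of DP and 61.5, 41.2 and 39.97 in those of Neuron. The fractions formed 3 separate steps downward. The fall was 1.80-fold from PP to DP (log2 -0.85 ± 0.15 SE, edgeR adjusted p = 8.85e-04) and 8.77-fold from DP to Neuron (log2 -3.13 ± 0.16 SE, adjusted p = 9.61e-09). Sema5b, which in the mouse retina acts with Sema5a through Plxna1 and Plxna3, was at 376, 384 and 428 CPM in the PP libraries, 226, 191 and 219.9 in those of DP and 63.1, 49.9 and 51.5 in those of Neuron. Its fractions fell in the same order without overlap, by 1.86-fold from PP to DP (edgeR adjusted p = 3.10e-05) and by 3.88-fold from DP to Neuron (adjusted p = 1.18e-08). The radial glia markers fell over the same fractions, 6 of 6 at each step, where 20.2% and 34.2% of all features fell.

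The class 6 semaphorins, transmembrane ligands of plexin A, rose in neurons, 4 of 4 against DP and 3 of 4 against PP. The shares of all features higher there were 33.1% and 36.7%. Sema6b, a ligand of Plxna4, was at 1.85, 1.07 and 1.38 CPM in the PP libraries, 3.27, 3.55 and 4.03 in those of DP and 85.5, 94.6 and 86.3 in those of Neuron. It was at a few CPM at most in progenitors, with no overlap, and rose 2.56-fold and then 24.6-fold (log2 4.62 ± 0.14 SE, edgeR adjusted p = 5.61e-05 and 1.96e-10), in all 62.8-fold from PP to Neuron. Sema6d, a ligand of Plxna1, was at 94.4, 69.6 and 67.5 CPM in the PP libraries, 114, 173 and 161 in those of DP and 583, 422 and 496 in those of Neuron. Its rise was 1.94-fold and then 3.34-fold (edgeR adjusted p = 0.0011 and 3.47e-06), without overlap between fractions. Sema6c was at 38.1, 28.2 and 31.2 CPM in the PP libraries, 86.9, 109 and 106 in those of DP and 328, 314.8 and 275 in those of Neuron. Its fractions did not overlap, and it rose by about the same factor at both steps, 3.10-fold and 3.04-fold (edgeR adjusted p = 1.67e-06 and 2.35e-07). Sema6a, whose receptors are Plxna2 and Plxna4, was at 53.4 to 56.8 CPM in PP, 35.2 to 40.02 in DP and 59.5 to 64.8 in Neuron. It dipped in DP (1.46-fold, edgeR adjusted p = 1.10e-04) and rose 1.62-fold to Neuron (adjusted p = 4.04e-06). Neuron against PP did not pass (log2 0.15 ± 0.07 SE, edgeR adjusted p = 0.0723), although 6 of the 18 other settings called it higher, the fit with the block of library sets among them (log2 0.15, adjusted p = 0.0412).

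Sema7a, the lipid-anchored member, which binds Plxnc1 and integrins with the beta 1 chain Itgb1, was at 25.2, 21.8 and 20.2 CPM in the PP libraries, 44.4, 52.2 and 49.4 in those of DP and 220.2, 184 and 176 in those of Neuron. It rose without overlap, 2.18-fold and then 3.97-fold (log2 1.12 ± 0.11 and 1.99 ± 0.11 SE, edgeR adjusted p = 1.04e-05 and 1.32e-08).

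**Figure D3:**
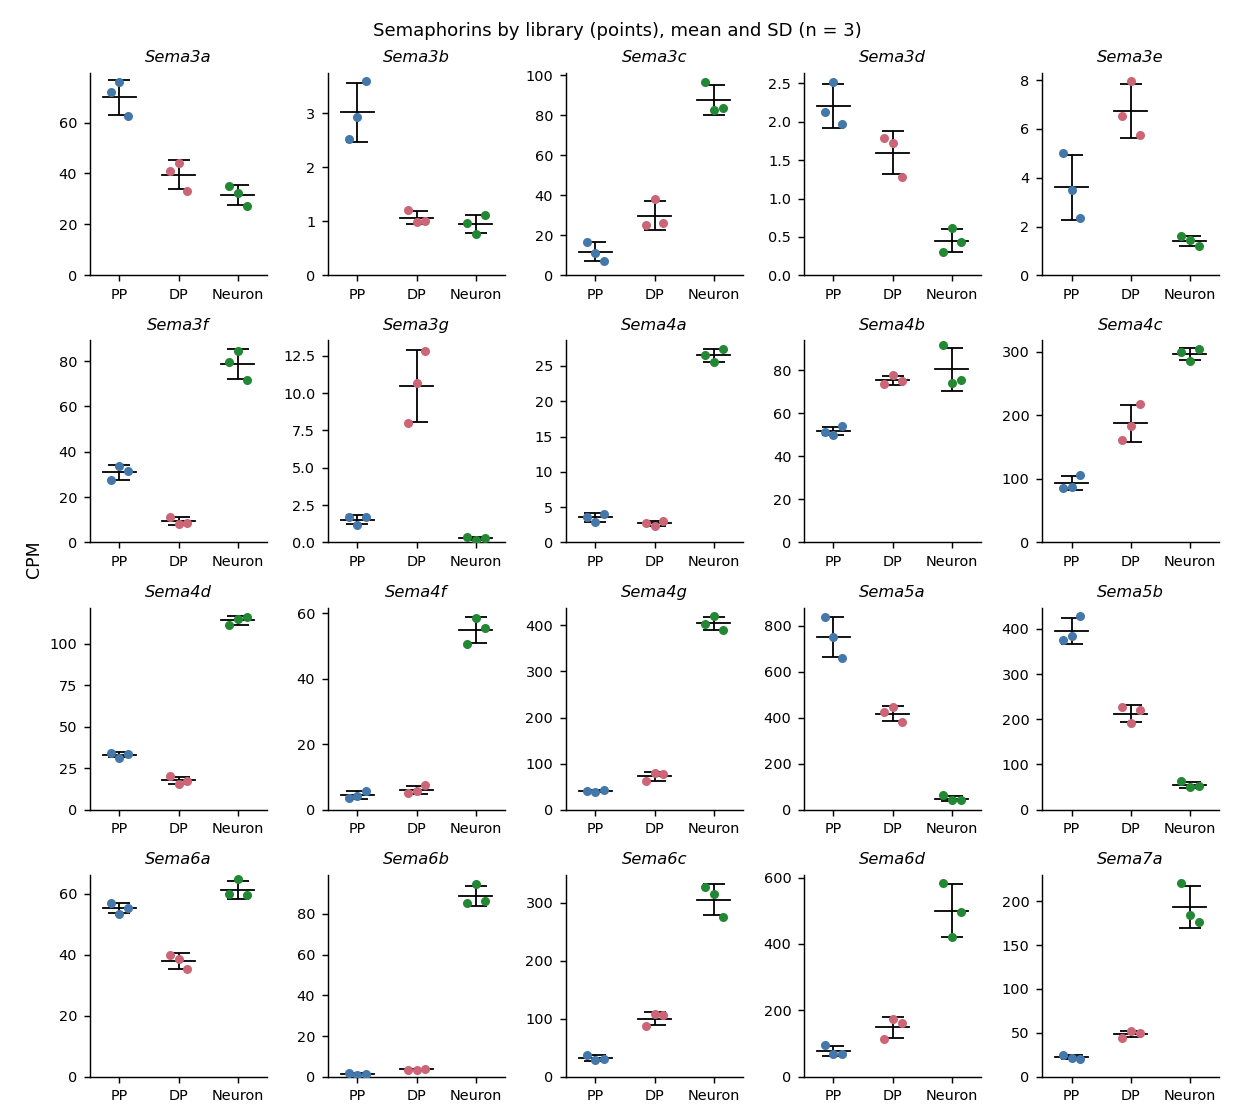
CPM of the 20 semaphorins in each library (points, 3 per fraction), with the mean and SD as black lines; each panel has its own axis from 0. Sema5a and Sema5b step down from PP to Neuron, Sema3e and Sema3g peak in DP, Sema3f, Sema4d and Sema6a are lowest in DP, and Sema4a, Sema4f, Sema4g and Sema6b are high in Neuron.

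To compare levels between genes, CPM were divided by exon length in kb. On this scale, the highest ligands in PP were Sema5a (62.1 ± 7.34, SD, n = 3) and Sema5b (55.9 ± 4.00), whose libraries overlapped, with Sema4c next at 20.3 ± 2.37. In DP, Sema4c (40.9), Sema5a (34.6) and Sema5b (29.97) led, each overlapping the next. In Neuron, Sema4g (83.1 ± 3.02) stood above Sema4c (64.7), Sema7a (58.7), Sema6c (51.6) and Sema6d (47.4), of which neighbours overlapped. Among receptors, Plxnb2 (79.0 ± 0.853) and Plxnb1 (68.2 ± 5.15) led in PP without overlap, followed by Plxna1 (27.2). In DP, Plxna2 (77.2) stood beside Plxnb2 (75.9) and Plxnb1 (74.7), neighbours overlapping. In Neuron, Plxna2 (126 ± 13.0) led, before Plxna3 (98.2) and Plxna4 (90.7), which overlapped.

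Summed by class, the make-up of both ligands and receptors differed between the fractions. These shares are descriptions and were not tested. Class 5 took 56.6% ± 0.71 of the semaphorin CPM per kb in PP, 31.7% ± 2.96 in DP and 2.69% ± 0.33 in Neuron (SD, n = 3). Class 4 went from 21.5% through 36.2% to 45.3%, class 6 from 9.32% through 17.7% to 29.6% and class 7 from 3.26% through 7.23% to 13.5%, while class 3 was at 9.27%, 7.09% and 8.89%. Among plexins, the plexin A share went from 31.6% through 52.5% to 71.3%, the plexin B share from 63.6% through 45.7% to 20.8%, and that of Plxnd1 from 0.67% and 0.41% to 6.84%.

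Ligands and receptors were then set side by side. The semaphorins summed to 215, 204 and 206 CPM per kb in the PP libraries, 191, 210.1 and 211 in those of DP and 457, 426 and 416 in those of Neuron. Their total thus overlapped between PP and DP and was higher in every Neuron library, 2.12-fold over DP by the means. The plexins summed to 232, 232 and 232 CPM per kb in the PP libraries, 325.7, 336.2 and 328.4 in those of DP and 568, 487 and 477 in those of Neuron. This total was higher at each step without overlap, 1.42-fold and then 1.55-fold by the means. The neuropilins summed to 4.63, 2.68 and 2.75 CPM per kb in the PP libraries, 31.9, 40.4 and 38.8 in those of DP and 73.2, 73.6 and 66.4 in those of Neuron, so that no fractions overlapped. The ratio of semaphorins to receptors was 0.887 ± 0.0199 in PP (SD, n = 3), 0.556 ± 0.0199 in DP and, between these, 0.746 ± 0.0286 in Neuron, with no overlap. Of the 20 semaphorins, 10 rose and 7 fell from PP to DP, with a median log2 change of 0.49, and 12 rose and 6 fell from DP to Neuron, with a median of 1.12. Of the 10 receptors tested, 6 were higher and 1 lower at the first step, with a median of 0.44, and 8 were higher and 2 lower at the second, with a median of 0.77. Over all features tested the medians were -0.02 and -0.04, with 21.3% higher and 20.2% lower first and 33.1% higher and 34.2% lower second.

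**Figure D4:**
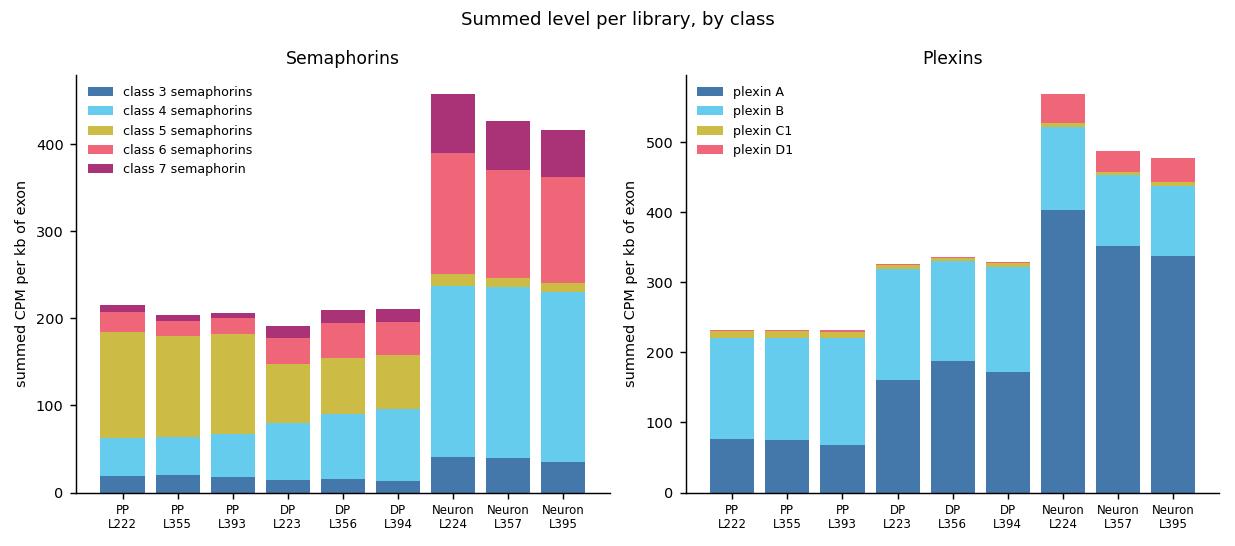
Summed CPM per kb of exon in each library, with stacked colours for the semaphorin classes (left) and the plexin classes (right). The class 5 part shrinks from 56.6% of the semaphorins in PP to 2.69% in Neuron, and the plexin A part grows from 31.6% to 71.3% of the plexins.

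Some known pairs of ligand and receptor moved in opposite directions at a step. Sema3e fell 4.76-fold from DP to Neuron while its receptor Plxnd1 rose 26.1-fold. Sema4d rose 6.45-fold over the same step while Plxnb1 fell 1.59-fold, and Sema7a rose 2.18-fold from PP to DP while Plxnc1 fell 2.05-fold. Sema3g fell 38.5-fold from DP to Neuron where Nrp2 rose 2.43-fold, after both had risen from PP to DP, 6.85-fold and 14.8-fold. Sema7a (3.97-fold) and Plxnc1 (1.18-fold, lost under the settings named above) both rose from DP to Neuron. Sema3a fell 1.77-fold from PP to DP while Nrp1 rose 10.4-fold, and Sema6a fell 1.46-fold while Plxna2 and Plxna4 rose 4.23-fold and 14.3-fold. Sema4g and Sema4c rose 5.58-fold and 1.58-fold from DP to Neuron while Plxnb2 fell 1.28-fold, a fall lost without L223 or L395. Over that step Sema5a and Sema5b fell 8.77-fold and 3.88-fold while Plxna1 and Plxna3 rose 1.52-fold and 2.43-fold. Other pairs rose together. From DP to Neuron, Sema3f rose 8.38-fold beside Nrp2 at 2.43-fold and Plxna3 at 2.43-fold, and Sema6b rose 24.6-fold beside Plxna4 at 3.82-fold. Sema6a, opposite to its receptors at the first step, rose 1.62-fold from DP to Neuron beside Plxna2 at 1.64-fold and Plxna4. Sema6d and Plxna1 rose together at both steps, Sema6d 1.94-fold and 3.34-fold and Plxna1 1.18-fold and 1.52-fold. The first rise of Plxna1 was lost under 6 of the 18 other settings. From PP to DP, however, Sema3f fell 3.30-fold where Nrp2 rose 14.8-fold. No test compared a ligand with its receptor, and each of these changes is called on its own.

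Partner and signalling genes of the family, 55 listed and 54 tested, are given by their counts. Each change named here passed the threshold of the same edgeR fit. In DP against PP 25 were higher and 14 lower, where 21.3% of all features were higher and 20.2% lower. In Neuron against DP 32 were higher and 16 lower, where 33.1% of all features were higher and 34.2% lower. The median log2 changes were 0.18 and 0.28, and those of all features -0.02 and -0.04. Of the 10 co-receptors and other receptors, 4 rose and 3 fell from PP to DP, and 5 rose and 5 fell from DP to Neuron. L1cam, which pairs with Nrp1, had mean levels of 11.02, 148 and 899 CPM in PP, DP and Neuron, a 13.6-fold and then a 6.07-fold rise. Chl1 rose 8.07-fold and 25.8-fold, and Cntn2 8.71-fold and 22.4-fold. Nrcam, an adhesion molecule that pairs with Nrp2, fell 1.63-fold and then rose 1.99-fold, with means of 204, 125 and 249 CPM. Of the 10 cytoskeleton effectors, 8 rose and 0 fell from PP to DP, and 9 rose and 1 fell from DP to Neuron. Among them the collapsin response mediators Crmp1 and Dpysl3 rose 6.36-fold and 4.69-fold from DP to Neuron, and Mical2, an actin-oxidising enzyme, rose 5.19-fold from PP to DP. Cdk5r1, the activator of the kinase Cdk5, rose 4.83-fold and 5.65-fold. Of the 10 small GTPases, 2 rose and 7 fell from PP to DP, and 3 rose and 4 fell from DP to Neuron. Rnd2, a GTPase of migrating neurons, was among those that rose, 8.07-fold from PP to DP.

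Other partners fell in neurons. Erbb2, a receptor tyrosine kinase known to associate with plexin B, was 29.95-fold lower in Neuron than in DP, the integrin subunit Itga1 21.2-fold, the plexin substrate Rras 17.5-fold and the GTPase Rhod 11.01-fold. All 4 other ligands of neuropilins, the growth factors Vegfa, Vegfb, Vegfc and Pgf, were lower in Neuron than in DP, Vegfc by 5.79-fold. Kdr, a receptor of Vegfa that is also an endothelial marker, was 4.87-fold lower. Itgb1, the integrin chain for Sema7a, had means of 179, 174 and 126 CPM and fell 1.38-fold from DP to Neuron.

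Markers of other neurons moved with the members that rose. Cajal-Retzius markers, 7 genes, summed to 4.602 to 8.243 CPM in PP, 76.3 to 90.2 in DP and 868 to 986 in Neuron. Reln had means of 4.28, 31.9 and 812 CPM and made up most of the sum in Neuron. Markers of GABAergic interneurons, 10 genes, summed to 166.3 to 181 CPM in PP, 116 to 267 in DP and 502 to 532 in Neuron. In Neuron against DP, 7 of them were higher and 1 lower, where 33.1% of all features were higher and 34.2% lower. The part of these other neurons in the rise of the neuropilins, Plxna4, Plxnd1 and the neuronal semaphorins was not tested. Pericyte markers summed to 32.6 to 59.8 CPM in PP and to 2.72 to 3.19 in Neuron, microglial markers to 10.2 to 13.6 and 1.64 to 3.11, meningeal fibroblast markers to 15.4 to 98.5 and 1.24 to 2.47, oligodendrocyte precursor markers to 15.1 to 16.5 and 1.28 to 1.52, and red blood cell markers to 8360 to 15293 and 9.09 to 13.5. The PP sums lay above the DP sums of these lists, except that oligodendrocyte precursor markers reached 15.6 in DP. Sema5a, Sema5b, Sema3a, Sema3b and Plxnc1 were called lower in both DP and Neuron than in PP. Sema3d and Plxnb2 had their highest mean in PP too, without a call in DP against PP. The part of these other cells in the PP level of these members was not tested. No marker was at 0 in every library, and Sox10 of the oligodendrocyte precursors and Aldh1a2 of the meningeal fibroblasts were at 0 in all 3 Neuron libraries.

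In the authors' deposited tables the call was the same for 28 of the 30 members in DP against PP and for 29 of 30 in Neuron against DP. The authors' deposited table called Sema4a lower (log2 -0.38, adjusted p 0.0408) and Sema4f higher (log2 0.44, adjusted p 0.0384) in DP than in PP, and did not call Sema3a in Neuron against DP (log2 -0.30, adjusted p 0.0525). Exons of other genes overlap those of 4 members, Nrp1 with 80 bases of Mir1903, Plxna4 with 110 of Gm13851, Plxnb1 with 210 of Gm7628, and Plxna1 as given above.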

How the data were processed

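Poly-A RNA of 9 libraries, 3 per fraction, was sequenced in a single-read and a paired-end run each, which gives the 18 samples. Gene counts per run were made and deposited by the authors for 37620 Ensembl release 67 genes and 630 unannotated transcripts, and the length of a gene's exons in bases stands beside them, per the file headers. Tools and build are taken from the submitters' processing notes, which give no roles: the build mm9, the aligners BWA 0.5.9-r16, Bowtie2 2.2.1 and TopHat2 2.0.10, the counter featureCounts 1.4.4, the packages DESeq and DESeq2 1.4.5, and also Cufflinks 2.1.1, bcl2fastq 1.8.2 and bedtools 2.16.2. The sources used here do not state whether strand was used in counting. The authors' deposited comparison tables hold a normalised signal per library, a log2 fold change, its standard error as a score and an adjusted p-value per gene. They were used only to set the authors' calls beside those made here.

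The library numbers of the count columns appear in no sample title, so each column was tied to its fraction alone. Counts of both runs of a library were added. The test was that of edgeR 4.0.16 under R 4.3.3 (TMM scaling, filterByExpr, two-sided quasi-likelihood test on all 9 libraries, the group as the only term, Benjamini-Hochberg adjustment at 0.05 over 18627 features), a script first tested on simulated data. CPM use TMM-scaled totals, folds come from the fit and were inverted where a gene was lower. The alternatives were DESeq2 1.42.0, other scalings, no filter on low counts, either run alone, only the fractions compared, each library left out in turn and L222, L223 and L224 left out together, and, chosen after seeing the data, a block of 3 library sets, 18 in all. The sets are the runs of consecutive library numbers in the column names (L222 to L224, L355 to L357, L393 to L395), 1 library of each fraction in each. No label ties a set to a litter or day. Libraries of 1 set deviated together from their group means (Pearson r over 18627 features 0.13 to 0.34 in 9 pairs of libraries, -0.32 to 0.011 in the 18 pairs across sets). The 3 deviations within a fraction cancel out by construction, so the values across sets are tied to those within sets and are no separate contrast. Members and gene lists were chosen with earlier results of these data known. Members described in full are Nrp2, Plxnd1, Sema5a and those called with at least a 2-fold change at a step and 5 CPM in the highest fraction. Partner genes were named when called with at least a 4-fold change at a step or as a known partner of a member described.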

Additional observations from a re-analysis of the deposited data

How the results depend on the processing

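With the library sets as a block, an alternative chosen after seeing the data, Sema4a, Sema4f (DP against PP) and Sema6a (Neuron against PP) gained a call, with the values given above, and no other call of a member changed. Called features went from 7714 to 9530, from 12539 to 13620 and from 14035 to 14938 in DP against PP, Neuron against DP and Neuron against PP. Leaving out each library in turn gave 1 to 2 receptors lower in Neuron than in DP, with 1 on leaving out L223 or L395, where Plxnb2 missed the threshold. Directions turned only for changes that were not called: Plxnb2 in DP against PP (log2 0.0031 without L394, from -0.14 to 0.0031 over the left-out libraries) and Sema4b in Neuron against DP (log2 -0.012 without L224, from -0.012 to 0.15 over the left-out libraries, and -0.024 without L222, L223 and L224). Upper-quartile scaling moved the median of all features by -0.12 in Neuron against PP. It gave medians there of 1.38 for semaphorins and 2.23 for receptors (1.51 and 2.35 otherwise), and summed levels in PP of 217 CPM per kb for semaphorins and 241 for plexins. The plexin sum in PP, whose libraries agree within 0.0713 (SD), was 238 from single-read and 227 from paired-end runs, 230.5 with DESeq2 size factors and 230.5 without a filter. In DP it was 338 and 324 from the single-read and paired-end runs. The cause was not tested. Among single members, calls of Plxna1 (DP against PP) and of Sema3a, Plxnc1 and Plxnb2 (Neuron against DP) were lost in 19 fits, and Sema4a, Sema4f (DP against PP) and Sema6a (Neuron against PP) gained a call in 18, while the other 1580 member fits kept their direction and side of the threshold. Members under about 3 CPM rest on few reads, as Sema3g with 7 to 16 per Neuron library.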

Other observations

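Sema3d, Sema3a, Sema3e and Sema3c follow one another on chromosome 5 (mm9), with gaps of 537, 423 and 2823 kb. From DP to Neuron, Sema3d and Sema3e were lower (log2 -1.81 and -2.25), Sema3a was lower by less (log2 -0.33) and Sema3c was higher (log2 1.55). From PP to DP, Sema3e and Sema3c were higher (log2 0.92 and 1.36), Sema3a was lower (log2 -0.82) and Sema3d did not pass the test (log2 -0.46). Sema3b and Sema3f lie 72.3 kb apart on chromosome 9. Both were lower in DP than in PP (log2 -1.50 and -1.72), and from DP to Neuron Sema3f was higher (log2 3.07) while Sema3b did not pass the test (log2 -0.18). On the X chromosome Plxnb3, at 1 to 6 reads per library, lies 557 kb from Plxna3, at 189 to 787 CPM. The calls are from the same edgeR fit, and no test compared neighbouring genes.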
